A study of Homo sapiens with 4 samples.

Results

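Fibroblast growth factors (FGFs), their receptors and 2 proteins that bind or resemble them were followed in ES-2 cells after depletion of the YAP1-MAML2 (YM) fusion. The genes were taken by name: the ligands FGF1, FGF2, FGF5 and FGF18, the receptors FGFR1, FGFR2, FGFR3 and FGFR4, the receptor-like FGFRL1 and the carrier protein FGFBP1. All 10 symbols had a row among the 19626 genes of the deposited tables. ES-2 is an established human ovarian clear cell carcinoma line that carries the endogenous YM fusion. Cells received pLKO.1 lentivirus with a non-targeting shRNA (shCtl, 2 biological replicates) or with the MAML2 shRNA shM2-3 (2 biological replicates), in infections of 8 h on consecutive days. RNA was taken 96 h after the first infection by the labels, while the study's methods give a shorter transduction. The hairpin acts on a stretch that MAML2 shares with the fusion, and the study reports less of both proteins by western blot. The MAML2 counts used here do not separate the fusion from native MAML2. The groups rest on 1 cell line and 1 hairpin.

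FGFs are secreted growth factors that bind receptor tyrosine kinases together with heparan sulfate chains on the cell surface or in the matrix. Ligand binding pairs the receptors, which then phosphorylate the adaptor FRS2 and start RAS-MAPK signalling. The pathway is restrained by inhibitors that it induces itself, such as the Sprouty and DUSP proteins, and it is known as a source of growth and survival signals in many carcinomas.

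Library totals ranged from 20051083 to 23978660 estimated counts. MAML2 had 1436 and 1402 counts with shCtl and 634 and 553 after shM2-3, a log2 fold change of -1.40 with a standard error of 0.0688 and an edgeR quasi-likelihood adjusted p = 5.18e-10. Of the clear cell carcinoma markers, KRT7, KRT8 and KRT18 were expressed. KRT7 had 268 ± 1.41 RPKM with shCtl and 107 ± 0.537 after shM2-3, KRT8 had 71.9 ± 1.99 RPKM with shCtl and 29.4 ± 0.45 after shM2-3, and KRT18 had 297 ± 3.25 RPKM with shCtl and 177 ± 2.22 after shM2-3 (SD, n = 2 each). PAX8, NAPSA, EPCAM and CDH1 stayed under 1 RPKM in every library, so these defining markers of the labelled tissue were absent or nearly so. RPKM divides the reads of a gene by its transcript length and by the depth of the library. Fibroblast markers summed to between 33.6 and 35.4 RPKM in shCtl and to between 23.3 and 23.6 in shM2-3, with 5 of 7 under 1 RPKM throughout. Most of this sum was THY1, while PDGFRB rose from 83 and 116 counts to 253 and 261 and was called higher (log2 fold change 1.23). Only the shM2-3 libraries brought PDGFRB over 1 RPKM and into the test, so its call is partly set by that limit. Endothelial markers summed to between 9.40 and 10.6 and to between 5.10 and 5.67, with 3 of 5 under 1 and CDH5 making up most of the sum. Leukocyte markers summed to between 0.603 and 1.06 RPKM in shCtl and to between 3.02 and 5.14 in shM2-3, with 3 of 5 under 1 RPKM throughout and PTPRC at 3, 0, 2 and 2 counts. The part of these markers in the results below was not tested.

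In the shM2-3 libraries 2 of the 4 ligands, FGF5 and FGF2, stood at 31.4% and 30.0% of their control RPKM, and FGFR4, a receptor known from bile acid control in the liver, stood at 11.7%. FGFR1, by far the most abundant receptor, kept 85.1%. FGFRL1 did not pass the test. A gene was called when edgeR's quasi-likelihood test gave it a fold change of 2 or more and its p, adjusted after Benjamini and Hochberg, was at most 0.05. Genes entered the test if any library gave them an RPKM over 1, which 12157 did. By this rule 3 of the 10 genes were lower in shM2-3 and none was higher, against 8.93% of all tested genes lower and 9.24% higher. Only 5 of the 10 passed the RPKM limit. FGF2 and FGFR4 passed it through the shCtl libraries alone, so their difference from shM2-3 is partly set by that limit. In bulk RNA, fewer expressing cells and less RNA per cell cannot be told apart.

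**Figure D1:**
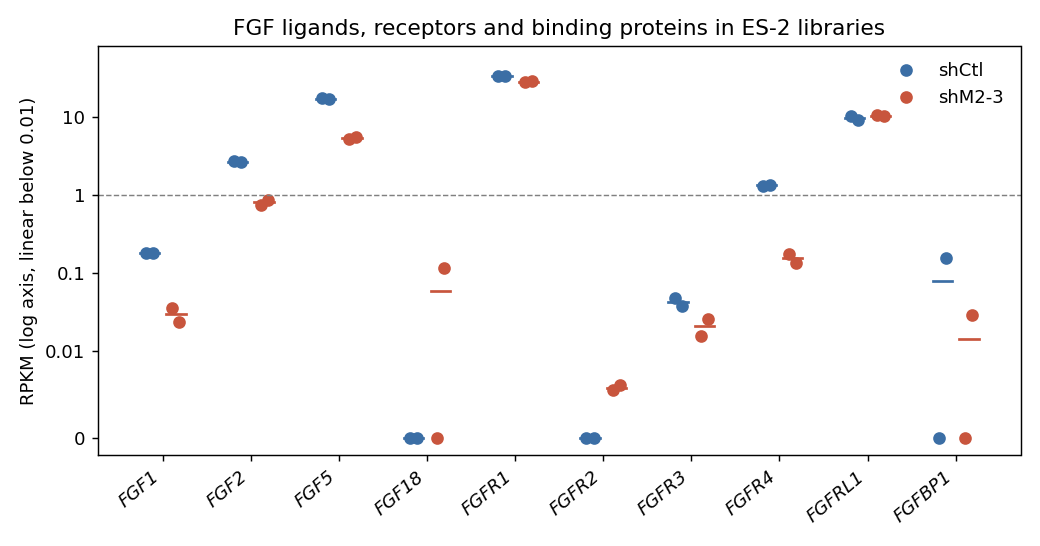
RPKM of the 10 genes in each library, on a log axis that is linear below 0.01. Points are libraries, short lines are means of 2 libraries, and the dashed line is the RPKM limit of 1. FGF5, FGF2, FGF1 and FGFR4 were lower in both shM2-3 libraries, while FGFR1 kept 85.1% of its control mean and FGFRL1 stood near its own.

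The promoters of the 3 called genes are shown because their RNA fell together in a study of YAP1/TEAD-driven transcription. Each is the 250 bases before the RefSeq start nearest to the canonical transcript (GRCh38.p14, plus strand for all 3 genes), read 5′ to 3′. Capitals mark GGGCGG or its reverse complement CCGCCC, the GC box that SP and KLF factors bind. The windows lie at chr4:80266338-80266587 for FGF5, chr4:122826581-122826830 for FGF2 and chr5:177086665-177086914 for FGFR4.
FGF5: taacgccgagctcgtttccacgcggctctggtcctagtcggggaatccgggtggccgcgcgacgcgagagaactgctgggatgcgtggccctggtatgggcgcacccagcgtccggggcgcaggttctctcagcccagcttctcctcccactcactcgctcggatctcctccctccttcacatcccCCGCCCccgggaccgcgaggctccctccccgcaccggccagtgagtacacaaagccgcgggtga
FGF2: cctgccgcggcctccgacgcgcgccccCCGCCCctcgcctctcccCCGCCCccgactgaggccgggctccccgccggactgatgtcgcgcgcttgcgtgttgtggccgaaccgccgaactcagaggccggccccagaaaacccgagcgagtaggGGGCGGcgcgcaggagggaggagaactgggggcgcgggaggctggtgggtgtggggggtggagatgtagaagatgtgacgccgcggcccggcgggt
FGFR4: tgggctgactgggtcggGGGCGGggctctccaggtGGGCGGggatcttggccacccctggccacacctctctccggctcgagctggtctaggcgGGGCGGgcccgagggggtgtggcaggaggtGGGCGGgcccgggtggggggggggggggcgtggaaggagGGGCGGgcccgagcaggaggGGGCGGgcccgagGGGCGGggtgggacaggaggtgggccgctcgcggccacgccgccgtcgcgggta

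The GC box occurred 1 time in the FGF5 window, 3 times in that of FGF2 and 7 times in that of FGFR4. It was found in 8 of the 9 windows of the FGF genes and in 42.6% of 35116 RefSeq windows of this length. Guanine and cytosine made up 68.8%, 75.2% and 79.6% of the 3 windows, against a median of 58.0% over all windows. The letters GGAATG, the core that TEAD factors bind, were searched on both strands and were in none of the 9 windows nearest to a canonical start (FGFR1 had no entry), against 11.9% of all windows. The AP-1 letters TGANTCA were likewise in none of the 9, against 6.6% of all, as were the TATA letters TATAAA, against 10.7%. Among further annotated starts, 1 window of FGF1 held 2 TEAD matches and 1 AP-1 match, 2 windows of FGFR2 held 1 TEAD match each, and the second window of FGF5 held 2 TATA matches. With 9 windows, an absence cannot be told from a share of 11.9%. Sequence farther from the starts was not searched, and control of these genes by TEAD was not tested.

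FGF5, a ligand best known for ending the growth phase of the hair follicle, was the most abundant of the ligands. It lies on chromosome 4 of hg38 from 80266639 to 80336680 and has 3 exons in the canonical transcript. Its counts were 2279 and 2275 in shCtl against 831 and 816 in shM2-3. The corresponding RPKM values were 17.1 and 16.8 in shCtl against 5.10 and 5.53 in shM2-3. Both shM2-3 libraries lay far below both shCtl libraries. The log2 fold change of FGF5 was -1.61 with a standard error of 0.0614 and an edgeR quasi-likelihood adjusted p = 3.73e-11, a 3.05-fold fall. Among all tested genes, 3.55% had a log2 fold change as low as or lower than that of FGF5. In the annotation, exons of CFAP299 on the same strand share 136 bases with FGF5 (2.3% of its exon bases). CFAP299 had 7 and 15 counts with shCtl and 2 and 7 after shM2-3.

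FGF2, a mitogen for fibroblasts and endothelial cells that leaves the cell without a signal peptide and is stored on heparan sulfate, lies on chromosome 4 from 122826682 to 122898236. It had 426 and 423 counts with shCtl and 142 and 152 after shM2-3. The mean RPKM was 2.65 ± 0.0435 (SD, n = 2) in shCtl against 0.797 ± 0.0952 (SD, n = 2) in shM2-3, and the groups did not overlap. For FGF2 the log2 fold change was -1.67 with a standard error of 0.133 and an edgeR quasi-likelihood adjusted p = 7.95e-08, which is within 1 standard error of the value of FGF5. The ratio of FGF5 to FGF2 RPKM was 6.36 and 6.40 in shCtl against 6.98 and 6.40 in shM2-3, so replicate 2 of either group had the same ratio while the levels fell.

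FGF2 shares sequence with NUDT6, a Nudix hydrolase gene read from the opposite strand. In the canonical transcripts, 704 bases are exonic in both genes, which is 10.6% of FGF2 and 57.4% of NUDT6. The libraries did not keep strand, so reads from this stretch cannot be told apart. NUDT6 had 162 and 153 counts with shCtl and 73 and 63 after shM2-3, a log2 fold change of -1.35 with a standard error of 0.207 and an edgeR quasi-likelihood adjusted p = 4.96e-05. The ratio of FGF2 to NUDT6 counts was 2.63 and 2.77 in shCtl against 1.93 and 2.40 in shM2-3. Both genes of the pair were lower, and how many NUDT6 reads came from FGF2 was not tested.

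**Figure D2:**
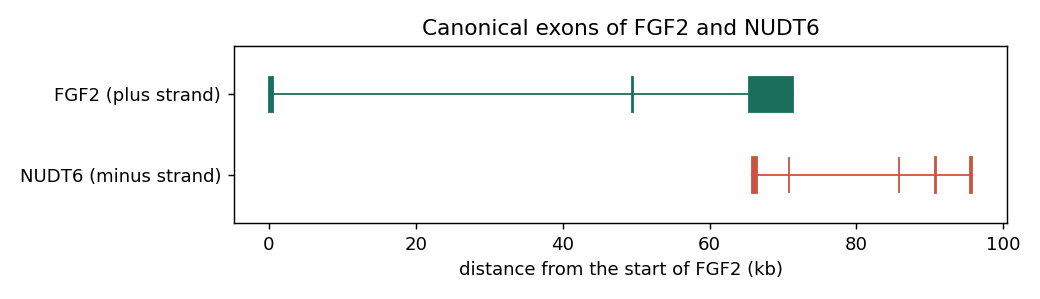
Exons (boxes) of the canonical FGF2 and NUDT6 transcripts by distance from the start of FGF2 in kb, drawn to scale. The last exon of FGF2 overlaps 2 exons of NUDT6 on the opposite strand, over 704 bases.

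FGF1, which can bind each of the FGF receptors, and FGF18, a regulator of cartilage and bone growth, were near the limit of detection. FGF1 (chromosome 5, 142592178 to 142698070) had 21 and 21 counts with shCtl and 5 and 3 after shM2-3, or 0.180 ± 0.00213 and 0.0294 ± 0.00843 RPKM (SD, n = 2 each). It was under the RPKM limit and was therefore left out of the main test. Under edgeR's own count filter it had a log2 fold change of -2.52 with a standard error of 0.605 and an edgeR quasi-likelihood adjusted p = 0.00264. With all 19626 genes kept, its adjusted p was 0.00368 from the same test, and 4 of the 10 genes were then called lower and none higher, against 7.76% of all genes lower and 8.45% higher. FGF18 had 0 counts in 3 libraries and 6 in shM2-3 replicate 2. A count of 0 allows up to 3 counts per library, so no difference in FGF18 was detectable at this depth.

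Summed over the 4 ligands, RPKM was 19.8 ± 0.265 with shCtl and 6.19 ± 0.474 with shM2-3 (SD, n = 2 each). FGF5 held 85.7% ± 0.0381 (SD, n = 2) of this sum in shCtl and 85.8% ± 1.64 (SD, n = 2) in shM2-3. FGF2 held 13.4% ± 0.0395 and 12.8% ± 0.555 (SD, n = 2 each). FGF1 held 0.911% ± 0.00144 and 0.481% ± 0.173 (SD, n = 2 each), and FGF18 held 1.77% in shM2-3 replicate 2 and 0 elsewhere. The groups overlapped in the share of FGF5. The share of FGF1 was lower in both shM2-3 libraries, but rests there on 5 and 3 counts. FGF2 held 13.5% and 13.4% in shCtl against 12.4% and 13.2% in shM2-3. The 6 FGF18 counts take their 1.77% from the sum in shM2-3 replicate 2. The ratio of FGF5 to FGF2, which leaves FGF18 out, was 6.40 in replicate 2 of both groups. A lower share of FGF2 was therefore not established.

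Among the receptors, FGFR1 (chromosome 8, 38400215 to 38468834, 18 exons) had 4824 and 4938 counts with shCtl and 4978 and 4610 after shM2-3. Its RPKM was 32.7 and 32.9 in shCtl against 27.6 and 28.2 in shM2-3, at the 91.9th percentile of all genes in shCtl. The log2 fold change of FGFR1 was -0.17 with a standard error of 0.0416 and an edgeR quasi-likelihood adjusted p = 0.00265, a 1.12-fold fall. This passed the adjusted p limit but not the fold change limit. Without the fold change limit 36.4% of tested genes were lower and 36.3% were higher. The median change over all tested genes was -0.07 on the log2 scale of RPKM and -0.0037 in the edgeR fit, and the fall of FGFR1 was larger in RPKM than in that fit. LETM2 on the opposite strand shares 138 bases with FGFR1 exons (0.8% of them) and had 213 and 228 counts with shCtl and 173 and 105 after shM2-3.

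FGFR4 (chromosome 5, 177086905 to 177098144, 18 exons) showed the largest fold change of the tested FGF genes. It had 97 and 101 counts with shCtl and 16 and 11 after shM2-3. The RPKM of FGFR4 was 1.32 ± 0.0221 (SD, n = 2) in shCtl against 0.155 ± 0.0300 (SD, n = 2) in shM2-3. Both control values lay far above both shM2-3 values. FGFR4 had a log2 fold change of -3.01 with a standard error of 0.352 and an edgeR quasi-likelihood adjusted p = 3.92e-06, an 8.04-fold fall that placed it in the lowest 0.675% of tested genes. FGFR4 entered the test through the shCtl libraries alone, so this rank is partly set by the RPKM limit. With so few counts left, the size of the fall is less certain than that of FGF5, and its standard error was larger than those of FGF5 and FGF2.

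FGFR2 and FGFR3, receptors that act in epithelia, skin and the skeleton, were nearly absent. FGFR2 (chromosome 10, 121478332 to 121598458) had 0 and 0 counts with shCtl and 1 and 1 after shM2-3. FGFR3 (chromosome 4, 1793293 to 1808872) had 5 and 4 counts with shCtl and 2 and 3 after shM2-3. Both were under the RPKM limit, and no difference was detectable at this depth.

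FGFR1 therefore made up 96.0% and 96.0% of the summed receptor RPKM in shCtl against 99.3% and 99.4% in shM2-3. FGFR4 held 3.84% and 3.91% in shCtl and 0.635% and 0.472% in shM2-3. The groups did not overlap for either share, but 2 libraries against 2 cannot give a p under 0.333 in an exact permutation test, so no p is given. The summed receptor RPKM was 34.1 ± 0.171 in shCtl and 28.1 ± 0.425 in shM2-3 (SD, n = 2 each). The ratio of FGFR1 to FGFR4 RPKM averaged 24.8 ± 0.297 with shCtl and was 156 and 211 in the shM2-3 libraries.

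**Figure D3:**
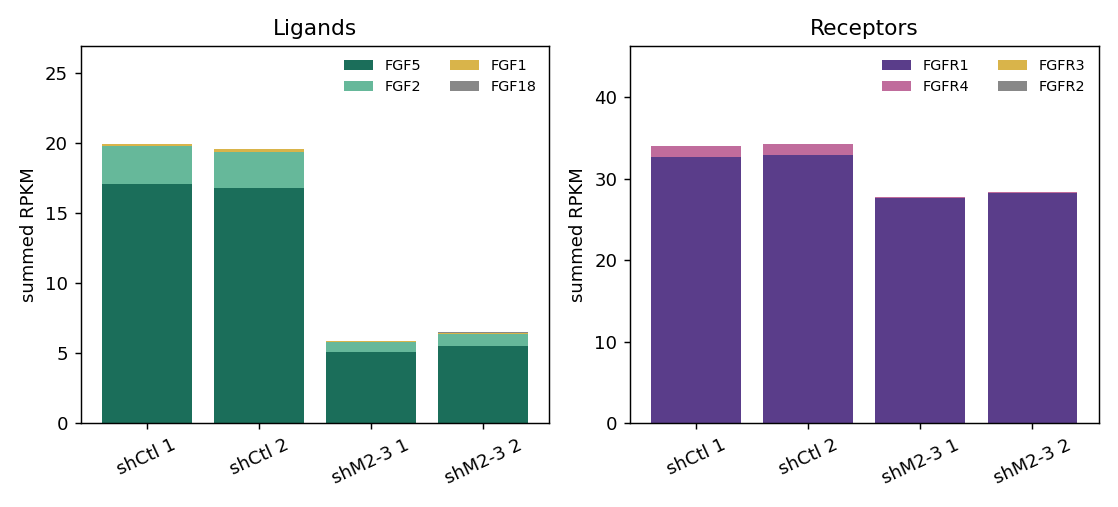
Stacked RPKM of the 4 ligands (left) and the 4 receptors (right) in each library, on linear axes from 0. The mean ligand sum was 19.8 in shCtl and 6.19 in shM2-3, while FGFR1 filled between 96.0% and 99.4% of the receptor bars.

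FGFRL1 resembles an FGF receptor but lacks the kinase domain and has been described as a decoy. It lies on chromosome 4 from 1009936 to 1026898. Its counts were 841 and 768 in shCtl against 1066 and 932 in shM2-3, and its RPKM was 10.1 and 9.03 in shCtl against 10.4 and 10.1 in shM2-3. The groups were adjacent, with less between them than between the shCtl replicates. The log2 fold change of FGFRL1 was 0.17 with a standard error of 0.0754 and an edgeR quasi-likelihood adjusted p = 0.059. A normal 95% interval of this value ran from 0.02 to 0.32, so a change of 2-fold lay outside it. Without shCtl replicate 1 the value was 0.25 (adjusted p = 0.0206 from the same test), still under the fold change limit, and without shCtl replicate 2 it was 0.09 (adjusted p = 0.401). The ratio of FGFR1 to FGFRL1 RPKM was 3.25 and 3.64 in shCtl against 2.64 and 2.80 in shM2-3.

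FGFBP1, a secreted carrier that frees FGFs from the matrix, had 0 and 5 counts with shCtl and 0 and 1 after shM2-3. The groups overlapped, and no difference was detectable. In shCtl the order of the mean RPKM was FGFR1, FGF5, FGFRL1, FGF2, FGFR4 and FGF1, with no overlap between neighbours. In shM2-3 it was FGFR1, FGFRL1, FGF5, FGF2 and FGFR4, again with no overlap between neighbours. Below these, the values of FGF1, FGFR3, FGF18 and FGFBP1 overlapped in shM2-3.

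**Figure D4:**
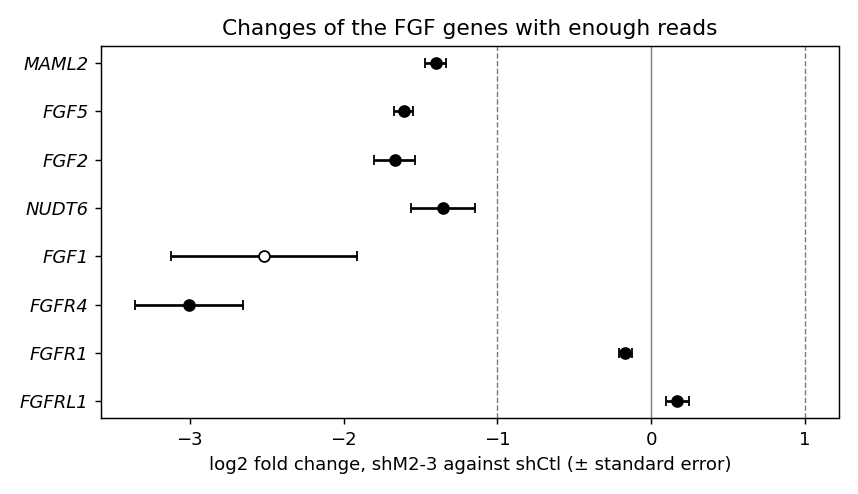
Log2 fold changes between shM2-3 and shCtl with standard errors. Filled points come from the test over 12157 genes and the open point, FGF1, from edgeR's count filter, and dashed lines mark a fold change of 2. FGF5, FGF2, FGF1 and FGFR4 lay beyond it, with FGFR1 and FGFRL1 near 0.

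The rest of the pathway was read from lists of genes chosen by function. Of 18 further genes of the FGF family, 11 had rows in the tables used here, and none reached an RPKM of 1 in any library. With all 19626 genes kept, 2 of the 11 were called lower and 1 higher, against the 7.76% and 8.45% given above. These were FGF12, FGF14 and FGF11, chosen for naming after their values were seen. All belong to the intracellular FGF homologous factors, which bind sodium channels and do not act through FGF receptors. FGF12 had 95 and 72 counts with shCtl and 31 and 13 after shM2-3, and FGF14 had 230 and 177 counts and then 84 and 59. FGF11 went the other way, from 6 and 10 counts to 53 and 32.

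Of 11 tested co-receptors, proteoglycans and binding proteins, 2 were called higher and none lower, against 9.24% and 8.93% of all tested genes. By adjusted p alone 8 were higher and 2 lower, against 36.3% and 36.4% of all tested genes. The median log2 fold change of the list was 0.36, against -0.0037 for all tested genes. GPC6, a glypican that carries heparan sulfate, rose from 2.65 ± 0.0881 to 10.2 ± 0.117 RPKM (SD, n = 2 each). The 95% interval of its log2 fold change ran from 1.87 to 2.13, at an edgeR quasi-likelihood adjusted p = 1.01e-11. SDC3, a syndecan, rose from 10.6 and 11.4 RPKM to 21.4 and 20.9, and its log2 fold change of 1.01 sat at the fold change limit. Its call was lost with library totals in place of TMM factors (0.97), with all genes kept (0.98), with edgeR's count filter (0.99), on both RPKM scales with limma, and without shCtl replicate 1 (0.96) or shM2-3 replicate 1 (just under 1). In 14 tested genes of heparan sulfate synthesis and editing, none was called, against 9.24% of all tested genes higher and 8.93% lower. By adjusted p alone 9 were higher and 1 lower, against 36.3% and 36.4% of all tested genes. Their median was 0.32. The lowest was B4GALT7, an enzyme of the linker to which heparan sulfate is attached, with a log2 fold change of -0.99, just inside the limit. EXTL3 and B3GALT6 were just inside it on the other side, at 0.997 and 0.989. Under library totals, with all genes or edgeR's filter, on both RPKM scales, and without shCtl replicate 2 or shM2-3 replicate 1, 1 gene of this list was called lower. Without shCtl replicate 2 or shM2-3 replicate 2, 2 genes were called higher. With DESeq2, its size factors in edgeR, all genes or edgeR's filter, 1 gene was called higher.

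Of 21 tested receptor-proximal signalling genes, 1 was called higher and none lower, against 9.24% and 8.93% of all tested genes. By adjusted p alone 8 were higher and 5 lower, against 36.3% and 36.4% of all tested genes, and the list had a median of 0.08 on the log2 scale. The called gene was FRS2, the adaptor that activated FGF receptors phosphorylate. FRS2 had 344 and 375 counts with shCtl and 947 and 848 after shM2-3, a log2 fold change of 1.18 with a standard error of 0.0850 and an edgeR quasi-likelihood adjusted p = 2.97e-08. On the log2(RPKM + 1) scale its change fell under the fold change limit.

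The list of feedback inhibitors and ETS targets held the largest share of calls. Of 17 tested genes, 7 were called higher and 2 lower, against 9.24% and 8.93% of all tested genes, and the median log2 fold change was 0.91. DUSP4, a phosphatase that inactivates MAP kinases, rose from 3.53 and 3.66 RPKM to 41.9 and 42.5, a log2 fold change of 3.62 (standard error 0.0503). SPRY4, a Sprouty inhibitor of receptor tyrosine kinase signalling, rose from 6.51 and 6.08 RPKM to 17.1 and 16.6 (log2 fold change 1.48). The ETS transcription factor ETV1 rose from 6.98 ± 0.291 to 18.0 ± 0.790 RPKM (SD, n = 2 each), a log2 fold change of 1.44. ETV4, SPRED3, DUSP6 and SPRED2 were also called higher, with log2 fold changes of 1.37, 1.24, 1.18 and 1.15, and were picked for naming after their values were seen.

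By adjusted p alone, 12 of the 17 were higher and 4 lower, against 36.3% and 36.4% of all tested genes. The genes called lower were MYC and FOSL1, transcription factors that many growth signals induce. The study counts MYC among the YAP1/TEAD targets that fell, and reports the fall by RT-qPCR in knockdown cells but not in MAML2 knockout cells. The other 2 lower genes, named after their values were seen, were IL17RD, an inhibitor of FGF signalling, with a log2 fold change of -0.44, and EGR1, an early response transcription factor, with -0.13. MYC fell from 99.7 and 99.8 RPKM to 12.8 and 12.7, a log2 fold change of -2.90 (standard error 0.0436). FOSL1 fell from 301 and 307 RPKM to 100.4 and 100.5, a log2 fold change of -1.53 (standard error 0.0393). The called inhibitors and ETS factors stood higher in the libraries in which FGF5, FGF2 and FGFR4 stood lower.

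**Figure D5:**
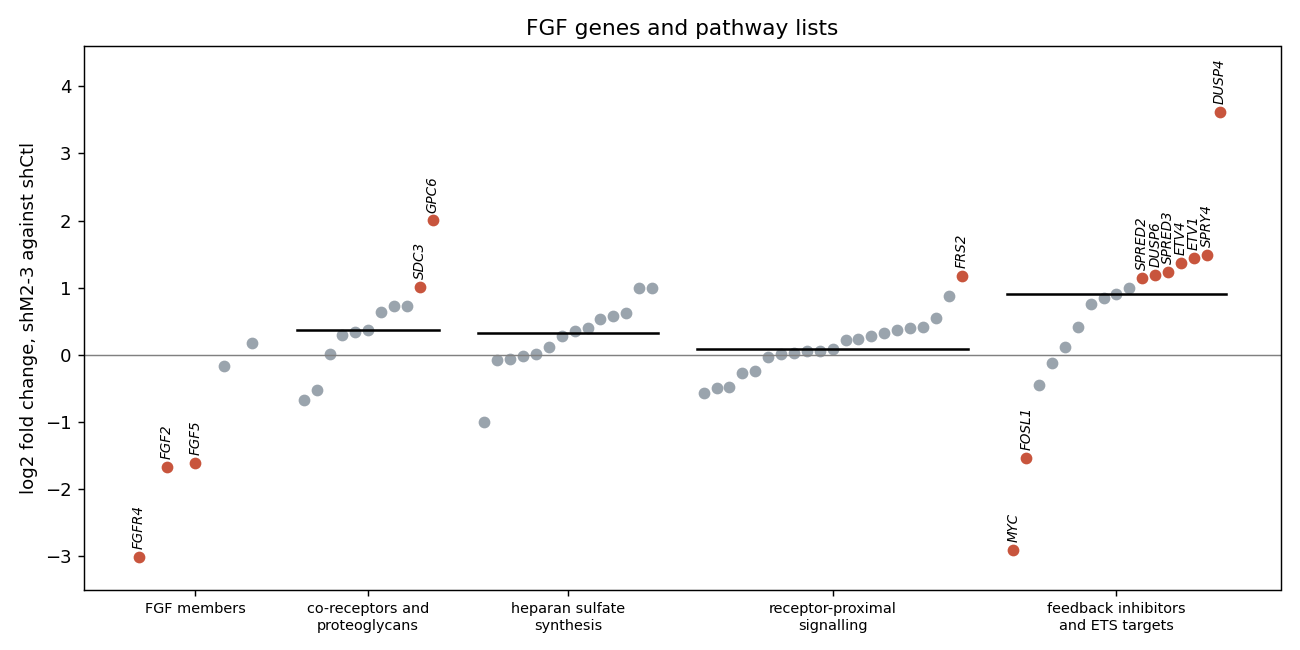
Log2 fold changes of the tested FGF genes and of 4 pathway lists, each point 1 gene, ordered by value within its list. Red points with names passed both limits, grey points did not, and black lines are list medians (0.36, 0.32, 0.08 and 0.91 from left to right).

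Gene-level counts do not separate the splice forms of the receptors. Of the regulators that choose between the epithelial and mesenchymal forms, ESRP1 lay between 0.0111 and 0.0512 RPKM and ESRP2 between 0 and 0.136 RPKM. RBFOX2 rose from 25.2 ± 0.278 to 32.6 ± 0.669 RPKM (SD, n = 2 each), a log2 fold change of 0.44 that passed the adjusted p limit and not the fold change limit. PTBP1 had a log2 fold change of -0.22.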

How the data were processed

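RNA-seq of 4 ES-2 libraries, 2 shCtl and 2 shM2-3, was analysed. The authors aligned non-strand-specific paired-end reads to hg38 with HISAT2 2.0.4, discarded ambiguous and low-quality alignments, and quantified RefSeq transcripts in Partek 7.18. They deposited estimated counts, of which between 42.6% and 48.8% per library are whole numbers, and RPKM values. Here counts were rounded and tested across all genes with the quasi-likelihood test of edgeR 4.0.16 in R 4.3.3 (TMM, no block, Benjamini-Hochberg adjustment), with the RPKM limit of 1, fold change of 2 and adjusted p of 0.05 of the study's methods. The biological coefficient of variation was 0.0485. The labels call the replicates biological and independently cultured, and replicates differed by 3.46 (shCtl) and 3.98 (shM2-3) times what sampling gives, as a chi-square over its degrees of freedom. The standard error is the size of the log2 fold change over the square root of F. Intervals are normal ones from this standard error, which includes the spread between replicates, and the floor of 3 counts covers counting error only.

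The script was tested on simulated counts. Positions and exons come from GENCODE v44 and promoters from RefSeq, both on the build of the authors. Alternatives were DESeq2 1.42.0, limma 3.58.1 on log2(RPKM + 0.1) and log2(RPKM + 1), other normalization, filters and fold limits, blocking on the replicate number, and dropping 1 library at a time. The genes and lists were chosen with earlier results of these data known. Besides the 10 genes, the rule named MAML2, YAP1, genes whose exons overlap them, and up to 3 called genes in each direction per list. YAP1, whose counts include reads of the fusion, had a log2 fold change of 0.42. Others were named after their values were seen.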

Additional observations from a re-analysis of the deposited data

How the results depend on the processing

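For 17 genes tested one by one (FGF5, FGF2, FGFR4, FGFR1, FGFRL1, MAML2, YAP1, the overlapping genes and the pathway genes picked by rule), 203 of 204 comparisons with an alternative kept direction and side of the adjusted p limit, and the exception was FGFRL1 without shCtl replicate 1. The log2 fold change of FGF5 ranged from -1.67 to -1.54 with each library left out, that of FGF2 from -1.80 to -1.54 and that of FGFR4 from -3.22 to -2.84. The RPKM scales moved the weakly expressed genes more. On log2(RPKM + 1) the change was -1.51 for FGF5, -1.025 for FGF2 and -1.01 for FGFR4, the last 2 only just past the fold change limit. On log2(RPKM + 0.1) FGFR4 had -2.48. The number of FGF genes called lower was 3 with each library left out and 4 with edgeR's filter, with all genes or without a fold change limit, and 0 were called higher under any setting listed in the methods.

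Over all genes, 2302 were lower and 2296 higher at a fold change of 1.5, and 4430 and 4414 without a limit. On log2(RPKM + 1), 724 were lower and 596 higher, against 1086 and 1123 in the main test. With a library left out, 1069 to 1088 were lower and 1099 to 1162 higher. Of 65 tested pathway genes, 2 were called lower and 10 higher in the main test, against 8.93% and 9.24% of all tested genes. Lower calls were 6 with all genes, among them SPRY3, whose counts lay almost wholly in shCtl replicate 1, and 6 with edgeR's filter. They were 4 at a fold change of 1.5 and 13 without a limit, and higher calls were 21 and 38 at those fold limits. With a library left out they were 2 to 3 lower and 9 to 13 higher. In counts in place of RPKM, FGFR1 held 97.9% of the receptor sum in shCtl and 99.65% in shM2-3, and FGFR4 held 1.99% and 0.279%. These shares moved because counts carry no scaling by length.

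The labels give both groups the same replicate numbers and do not say whether these pair cultures. The deviations of same-numbered libraries had a correlation of -0.03 across genes. This shows no large shared shift, but cannot tell whether same-numbered cultures were handled together. With the replicate block 3 FGF genes were lower and 0 higher, with 1079 and 1123 over all genes, and 2 and 10 pathway genes. Depth limited FGF18, FGFR2, FGFR3 and FGFBP1, with 6 counts or fewer in every library.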

Other observations

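Some further FGF-related genes under the RPKM limit were picked after their values were seen. FLRT2, a membrane protein of a family that binds FGF receptors, had 232 and 230 counts with shCtl and 970 and 789 after shM2-3. HS3ST1, a heparan sulfate sulfotransferase, had 35 and 40 counts with shCtl and 112 and 106 after shM2-3. KLB, the co-receptor of FGF19 and FGF21, went from 18 and 14 counts to 5 and 5. With all 19626 genes kept, FLRT2 and HS3ST1 were called higher, at edgeR quasi-likelihood adjusted p = 2.12e-59 and 2.02e-06. In that fit 8.45% of all genes were called higher and 7.76% lower. KLB was not called there (adjusted p = 0.0562 from the same test), and had 0.0194 under edgeR's count filter. Under that filter FLRT2 and HS3ST1 had adjusted p = 5.52e-09 and 0.000466 from the same test.

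SPRY3, a Sprouty gene, had 80 counts in shCtl replicate 1 and 1, 1 and 0 in the other libraries. LYZ among the leukocyte markers also differed between replicates, with 100 counts in shM2-3 replicate 1 and 5 in replicate 2. CSF1R had 2 and 8 counts with shCtl and 230 and 223 after shM2-3, and PECAM1 had 6 and 5 counts and then 256 and 163. Both genes passed the RPKM limit through the shM2-3 libraries alone. Other endothelial markers did not rise with PECAM1. CDH5 went from 869 and 985 counts to 485 and 424 and was called lower (log2 fold change -1.17). VWF went from 6 and 18 counts to 2 and 0, and KDR from 27 and 41 to 26 and 21. TEK had 0 and 1 counts and then 3 and 1.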
